A study of Mus musculus with 24 samples.

Results

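The 10 genes described here encode cytokines that helper T cells release: Tnf, Lta, Ltb, Ifng, Il2, Il3, Csf2, Il10, Il21 and Tgfb1. They were chosen by symbol, and their rows were read from a table of unique transcript counts that lists 55414 mouse genes. Counts were enough for a test in 10566 genes, among them 7 of the 10 cytokine genes; Il3, Csf2 and Il21 were too low and are given as counts.

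Helper T cells act on other cells largely through secreted cytokines. T cell receptor and CD28 signals switch many of these genes on within hours, through NFAT, NF-κB and AP-1 factors, and many of the messages are then removed quickly by proteins that bind AU-rich sequences in their 3′ untranslated region (UTR). Tnf, Lta and Ltb belong to the tumor necrosis factor family, Il2 and Il21 act through receptors that share the common gamma chain, Il3 and Csf2 act on myeloid cells and their precursors, and Il10 and Tgfb1 dampen immune responses.

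RNA was read from splenic conventional CD4+ T cells, labelled TE, of conplastic mice, in which all animals carry the C57BL/6J (B6) nuclear genome and differ in the mitochondrial DNA (mtDNA), which is either B6 (labelled WT) or NZB. Cells were taken at rest (labelled RES) or activated (labelled ACT), which the methods describe as 72 hours with beads that engage CD3 and CD28 (they name IL-2 for regulatory T cells, and whether this culture also received it is unclear), and each haplotype and state had 6 libraries, 24 in all. Cells were enriched magnetically as CD4+ CD25- cells. The methods name males aged 2 to 3 months for most experiments, and the labels give neither age nor sex for these samples, nor say whether each library came from its own mouse, so p-values measure the spread between libraries only.

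Levels are in CPM, a library's unique transcript counts scaled to a common total with trimmed-mean factors. Library totals ran from 51409 to 6449395 counts. Resting mtDNA NZB replicate 2 is the smallest, and 1 count there is worth 16.9 CPM, against at most 1.44 CPM in any other library. T cell marker sums (10 genes) stayed between 5346 and 9538 CPM in all libraries, while summed myeloid markers (5 genes) were at 457 to 2806 CPM at rest and at 10.8 to 109 CPM after activation, and Cd8a plus Cd8b1 were at 16.9 to 142 CPM at rest and at 82.0 to 534 CPM after activation. Of the 5 activated T cell markers, Il2ra, Tnfrsf4 and Mki67 were called higher and the early antigen Cd69 lower after activation, in both haplotypes. In bulk RNA, fewer cells of a type and less RNA per cell cannot be told apart.

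The genes lie in few places. Tnf and Lta sit 1157 bases apart on the same strand of chromosome 17 (GRCm39), Tnf at chr17:35418357-35420983 and Lta at chr17:35422141-35424327, and Ltb lies 3060 bases beyond Tnf on the other strand, at chr17:35413382-35415296. Il3 and Csf2 are 15635 bases apart on chromosome 11, and Il2 and Il21 are 96799 bases apart on chromosome 3, with no protein-coding gene between the members of any of these pairs.

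The libraries read the last part of each transcript, and the pentamer ATTTA, a letter pattern of AU-rich sequences, was counted there. In the last 1000 transcript bases (all 629 of Il3 and all 800 of Csf2), the pentamer ATTTA occurred 10 times in Csf2, 8 times in Tnf, 7 times each in Il2 and Il21, 6 times each in Ifng and Il10, 3 times in Lta, once each in Il3 and Tgfb1, and not in Ltb. The search covered the strand of the gene and counted overlapping matches. The share of the window annotated as 3′ UTR was unequal, so the counts do not compare 3′ UTRs alone. It was 13.8% in Tgfb1, 16.1% in Il3, 17.4% in Ltb and 39.6% in Csf2. In the others it ran from 57.2% in Lta to 100% in Il21. Pairs of pentamers that overlap by a base were found in Csf2 (5 pairs), Tnf (2 pairs), Lta (1 pair) and Il2 (1 pair), and in 3.39% of 20827 protein-coding genes; at least 1 pentamer was found in 66.4% of those genes. A match describes these letters only and is not evidence of binding.

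The stretches below were read from the GRCm39 genome on the strand of each gene, and all lie inside annotated 3′ UTRs. They show the densest 30 bases of each member that has at least 3 pentamers in such a stretch, with Tgfb1 for contrast. Capitals mark each ATTTA.
Csf2, chr11:54138150-54138179, minus strand: aaatATTTATTTATTTATTTATTTAttttt
Tnf, chr17:35418653-35418682, minus strand: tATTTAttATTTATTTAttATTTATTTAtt
Il2, chr3:37175188-37175217, minus strand: tATTTATTTAaatATTTAactttaATTTAt
Ifng, chr10:118281238-118281267, plus strand: ctATTTAttaatATTTAaaactATTTAtat
Tgfb1, chr7:25404428-25404457, plus strand: gcccggggctgtATTTAaggacacctgcac

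**Figure D1:**
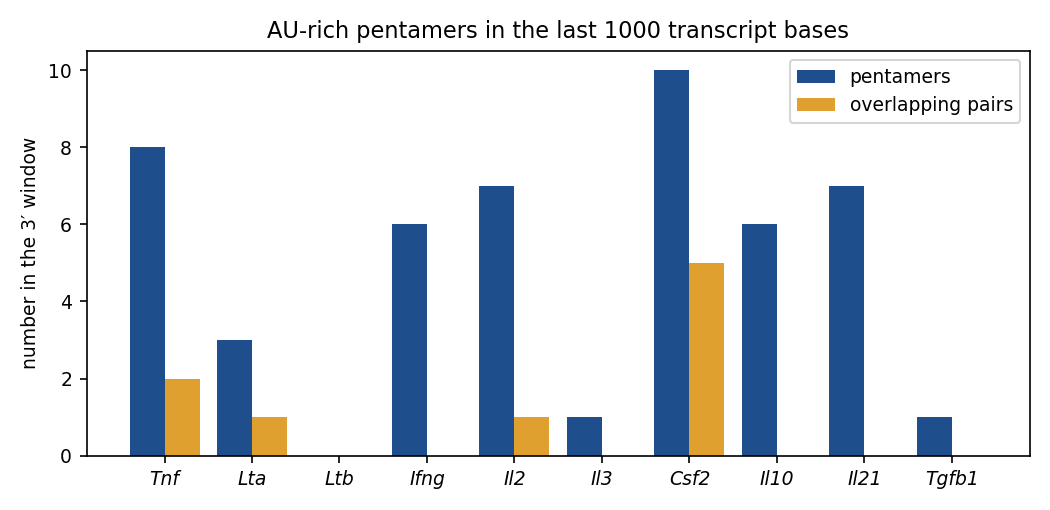
Number of AU-rich pentamers (blue) and of overlapping pentamer pairs (orange) in the 3′ window of each of the 10 genes. The window is the last 1000 transcript bases, or the whole transcript for Il3 (629 bases) and Csf2 (800 bases). Csf2 and Tnf hold the most (10 and 8), and Ltb holds none.

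Tnf, the founding cytokine of its family and an inflammatory signal made by T cells and by myeloid cells, was lower after activation in mtDNA B6 cells. It ranged from 28.2 to 57.5 CPM (median 37.3) in the 6 resting mtDNA B6 libraries and from 12.3 to 22.8 CPM (median 19.2) in the 6 activated ones. Every activated library lay below every resting one. The change was -1.08 on the log2 scale (SE 0.26), a 2.12-fold lower level, with an adjusted p of 0.00133 by edgeR's quasi-likelihood test (Benjamini-Hochberg). Tnf was the 1 gene of the 7 called in this comparison, where called means an adjusted p of at most 0.05 and at least a doubling or halving; 17.7% of all tested genes were called, and 10.6% were called lower. Groups that did not overlap, with activated cells lower, were found in 16.4% of tested genes. Without resting replicate 6, the highest of that group, the change was -0.91 (adjusted p = 0.00706), and without activated replicate 6 it fell just short of the fold limit of 1 (adjusted p = 0.00412). The libraries form 3 sets by their number of reads per transcript count, spread unevenly over the groups, and with the set as a term the change was -0.85 (adjusted p = 0.0455), also short of that limit.

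In mtDNA NZB cells the Tnf levels overlapped. They ran from 23.0 to 53.2 CPM (median 33.9) at rest and from 14.8 to 57.5 CPM (median 28.9) after activation, a log2 change of -0.31 (SE 0.27, adjusted p = 0.343 by edgeR's quasi-likelihood test (Benjamini-Hochberg)). The difference between the haplotypes' changes was 0.77 on the log2 scale (SE 0.38), with an adjusted p of 0.352 in the same test, so a different response of Tnf was not shown. The order of the group means was resting mtDNA B6 (39.2 ± 9.88 CPM, SD, n = 6), resting mtDNA NZB (36.7 ± 10.6), activated mtDNA NZB (31.7 ± 16.4) and activated mtDNA B6 (18.3 ± 4.61), and the neighbours among the first 3 did not differ beyond their spread. Activated mtDNA NZB was 0.69 above activated mtDNA B6 on the log2 scale (SE 0.27, unadjusted p = 0.0169), with an adjusted p of 1 in the same test. Summed myeloid markers fell together with Tnf in mtDNA B6 cells, from 817 to 2633 CPM at rest to 22.0 to 79.6 CPM, with all 5 markers called lower. In mtDNA NZB cells, where Tnf was not called, they fell from 457 to 2806 CPM to 10.8 to 109 CPM. All 5 were called lower there as well. The part of myeloid cells in the Tnf levels was not tested.

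Lta encodes lymphotoxin alpha, a soluble ligand of the TNF receptors and, joined to lymphotoxin beta, of the lymphotoxin receptor. It rose on activation in mtDNA NZB cells, but unevenly. Resting mtDNA NZB libraries held 22.5 to 62.8 CPM apart from replicate 2, the smallest library, which had 0 counts. Activated replicates 1, 2 and 5 held 523, 528 and 326 CPM, and replicates 3, 4 and 6 held 64.1, 70.6 and 41.3 CPM. So 3 activated libraries stood several times above all resting ones, while the other 3 lay close to them and replicate 6 lay inside their range.

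Across all 12 mtDNA NZB libraries the log2 change of Lta was 2.46 (SE 0.55), a 5.51-fold rise, with an adjusted p of 0.000516 by edgeR's quasi-likelihood test (Benjamini-Hochberg). Lta was the 1 gene of the 7 called in this comparison, where 23.4% of tested genes were called and 9.46% were called higher. The call held without any single library, with log2 changes from 2.09 to 2.69. Without the 2 smallest libraries, resting replicate 2 and activated replicate 1, it was 2.12 (adjusted p = 0.00269). With a block for recurring label numbers the change was 1.11 (adjusted p = 0.118 in the same test) and was not called. Activated replicates 2 and 5, at 528 and 326 CPM, share no label number with a resting library, so they do not bear on that change. The lower value can therefore not be read as an effect of pairing alone.

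In mtDNA B6 cells Lta lay between 29.6 and 58.0 CPM (median 46.9) at rest. Activated replicates 3, 4 and 5 were higher, with 170, 123 and 133 CPM, and replicates 1, 2 and 6 were not, with 37.2, 62.4 and 44.0 CPM. The groups overlapped. The log2 change was 1.07 (SE 0.51) with an adjusted p of 0.0849 by edgeR's quasi-likelihood test (Benjamini-Hochberg), and this call depended on the settings: the adjusted p was 0.0133 when only the 12 mtDNA B6 libraries were fitted and 0.0481 in a fit of the 21 libraries that match the group means of the published analysis. After activation Lta was 1.42 higher in mtDNA NZB than in mtDNA B6 cells on the log2 scale (SE 0.50, unadjusted p = 0.00859, adjusted p = 1 in the same test), and the difference between the responses was 1.39 (SE 0.73, adjusted p = 0.386). A difference between haplotypes in Lta was therefore not shown.

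Lta did not vary alone among the activated libraries. In each haplotype the 3 libraries with the most Lta were also the 3 with the most Tnf: 57.5, 41.1 and 36.8 CPM against 19.0, 20.9 and 14.8 CPM in mtDNA NZB, and 22.8, 22.7 and 21.5 CPM against 14.0, 16.8 and 12.3 CPM in mtDNA B6. The same libraries had the highest sums of the 5 activated T cell markers, at 559 to 692 CPM in mtDNA NZB (the other 3 at 283 to 421 CPM) and at 484 to 544 CPM in mtDNA B6 (the other 3 at 293 to 337 CPM). They had the lowest sums of Cd8a and Cd8b1, at 82.0 to 124 CPM against 205 to 534 CPM in mtDNA NZB, and at 161 to 185 CPM against 369 to 405 CPM in mtDNA B6.

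B cell markers were likewise lower in those libraries, at 83.5 to 291 CPM against 661 to 1059 CPM in mtDNA NZB, and at 458 to 521 CPM against 558 to 809 CPM in mtDNA B6. Foxp3 plus Ikzf4, which mark regulatory T cells, were higher in them, at 49.2 to 78.6 CPM against 20.6 to 39.6 CPM and at 44.5 to 46.6 CPM against 22.9 to 41.2 CPM. The part of cell makeup in the Lta and Tnf levels was not tested. No correlation was computed among the activated libraries alone, since the activated mtDNA NZB libraries fall into separate Lta ranges of 3 libraries each. Each of the 3 sets of like reads per transcript count held 1 of the high and 1 of the low activated mtDNA NZB libraries.

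**Figure D2:**
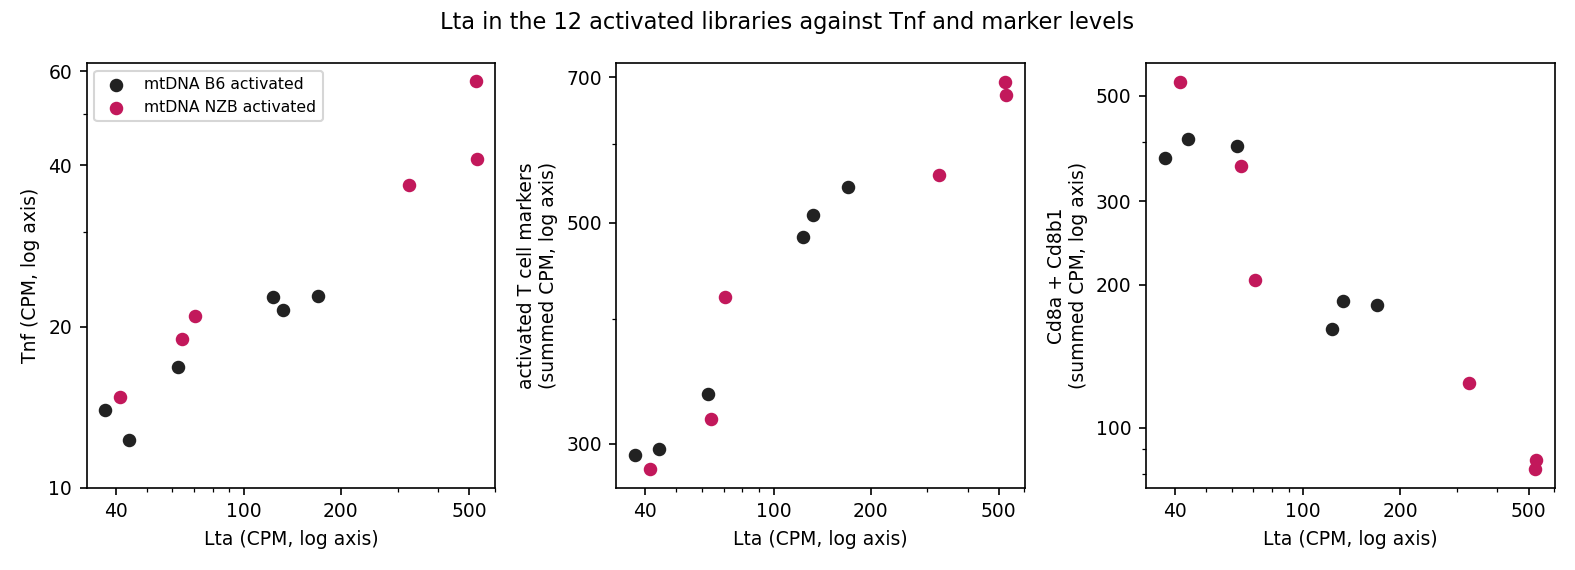
Lta in the 12 activated libraries (x axis, CPM, log scale) against Tnf, against the summed activated T cell markers and against Cd8a plus Cd8b1 (y axes, CPM, log scale). Each point is 1 library, black for mtDNA B6 and pink for mtDNA NZB. Tnf and the activated T cell markers are high, and the CD8 markers low, in the libraries with the most Lta, which reach 528 CPM in mtDNA NZB and 170 CPM in mtDNA B6.

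Ltb encodes lymphotoxin beta, the membrane anchor of the lymphotoxin heterotrimer, and was deeply counted throughout. The group means were 1471 ± 299 CPM in resting and 1554 ± 133 CPM in activated mtDNA B6 cells (SD, n = 6), and 1479 ± 343 and 1805 ± 256 CPM in mtDNA NZB cells. All 4 groups overlapped, and no comparison was called; the largest log2 difference was 0.29 (SE 0.15, adjusted p = 0.108 by edgeR's quasi-likelihood test (Benjamini-Hochberg)), for activation in mtDNA NZB. In the read window of Ltb, 354 bases are also exon of Gm65873, a noncoding gene on the other strand, and the sources used here do not state whether the counting kept the strands apart.

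**Figure D3:**
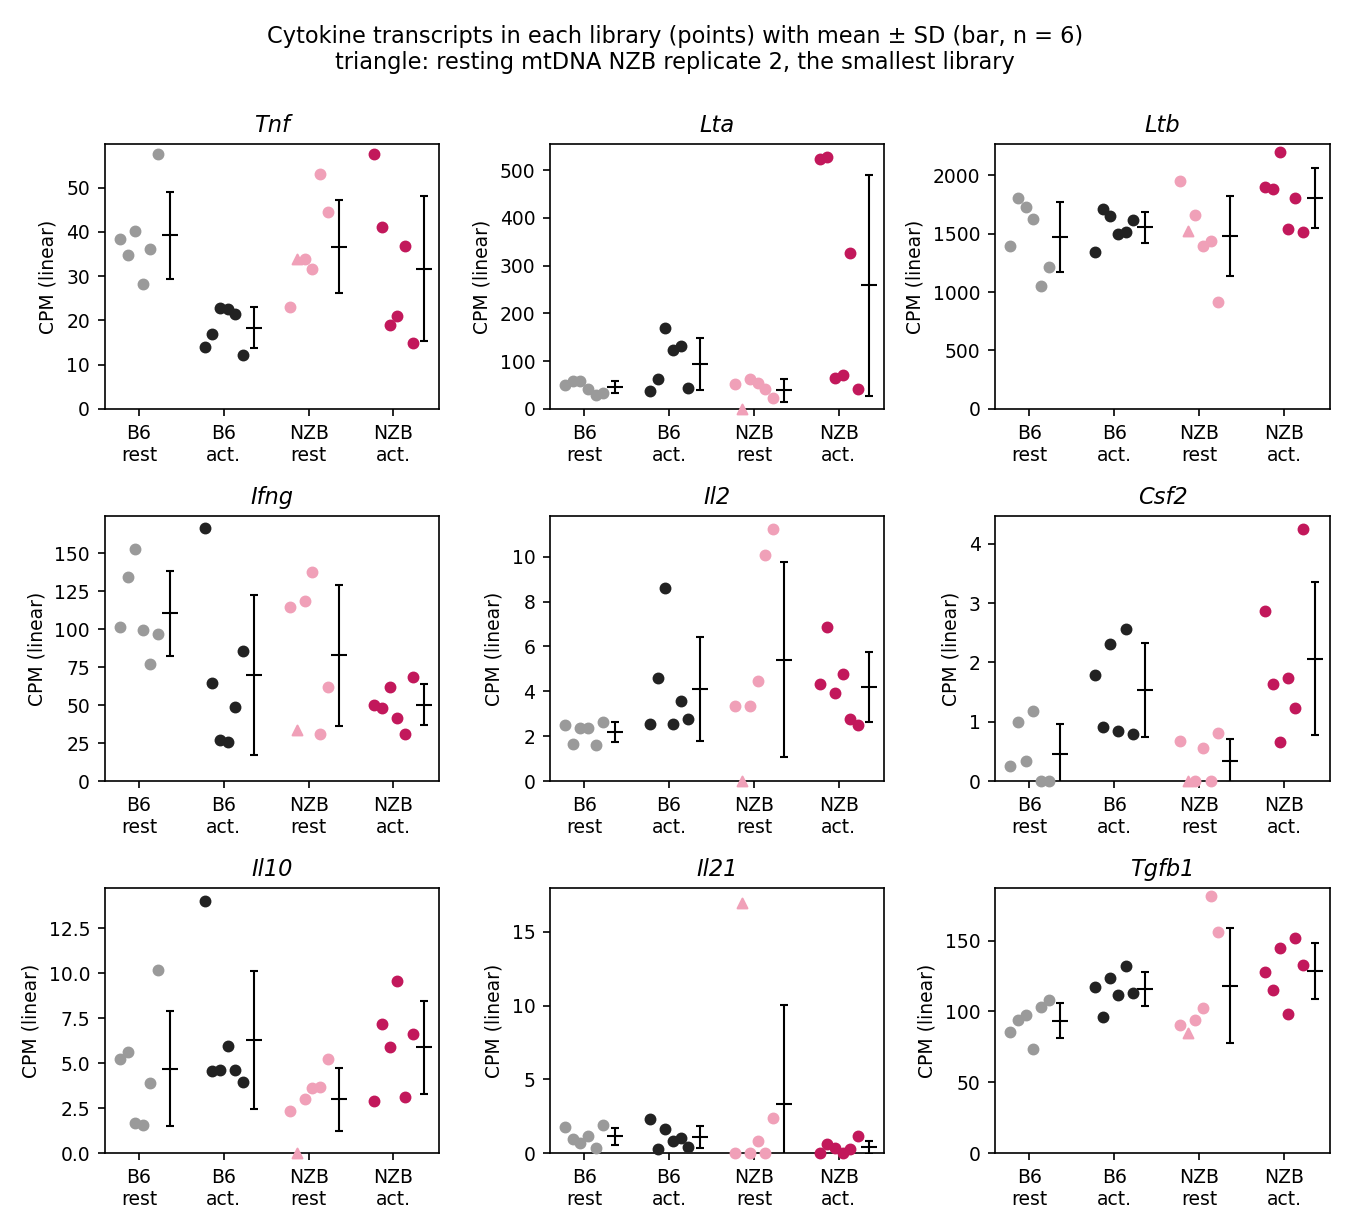
Level of 9 cytokine genes (CPM, linear axes from 0, 1 panel a gene) in the 6 libraries of each group, in replicate order, with the mean and SD beside them; bars that would pass below 0 end at the axis. The triangle is resting mtDNA NZB replicate 2, the smallest library. Tnf in activated mtDNA B6 cells lies below all resting ones, Lta in activated mtDNA NZB cells falls into a high and a low range, and Il2 in resting mtDNA NZB cells lies above mtDNA B6 apart from the smallest library. Il3 had no counts and is left out.

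Ifng encodes interferon gamma, the signature product of type 1 helper cells and also of CD8 T cells and natural killer (NK) cells. In mtDNA B6 cells it ran from 77.1 to 153 CPM (median 101) at rest and from 26.1 to 167 CPM (median 56.7) after activation. Activated replicate 1, at 167 CPM, was above every resting library, and 4 of the other 5 activated libraries were below all resting ones. In mtDNA NZB cells it ran from 30.7 to 138 CPM (median 88.2) at rest and from 31.3 to 68.3 CPM (median 49.1) after activation. The log2 changes were -0.66 (SE 0.36, adjusted p = 0.133) and -0.85 (SE 0.38, adjusted p = 0.0609) by edgeR's quasi-likelihood test (Benjamini-Hochberg), and neither was called.

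Single libraries decided this result. Without activated mtDNA B6 replicate 1 the change in mtDNA B6 cells was -1.14 (adjusted p = 0.00582), and without resting mtDNA NZB replicate 5 the change in mtDNA NZB cells was -1.05 (adjusted p = 0.0184), both past the threshold of edgeR's quasi-likelihood test (Benjamini-Hochberg). NK cell markers (5 genes) were low and fell too, from a median of 8.67 to 2.43 CPM in mtDNA B6 and from 9.77 to 1.60 CPM in mtDNA NZB; Klrb1c, the 1 of the 5 tested, was called lower in both, and the part of these cells was not tested. Among the activated mtDNA B6 libraries, the 3 with the least Ifng, at 27.1, 26.1 and 48.9 CPM, were the 3 with the most Lta and with the lowest Cd8a plus Cd8b1. In activated mtDNA NZB this order did not hold: Ifng was at 50.3, 47.9 and 31.3 CPM in the libraries with the most Lta and at 62.2, 41.4 and 68.3 CPM in the others. Of the read window of Ifng, 249 bases are also exon of Gm49751, a gene model on the same strand that awaits experimental support.

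Il2 encodes the T cell growth factor. Its counts were low, from 0 to 28 a library, and it was the 1 gene of the 7 called between haplotypes at rest. Resting mtDNA B6 libraries held 1.60 to 2.63 CPM (median 2.36), and resting mtDNA NZB libraries held 3.34, 3.36, 4.48, 10.1 and 11.2 CPM, with 0 counts in replicate 2, the smallest library, where 3 counts would already be 50.8 CPM. Leaving that library aside, every mtDNA NZB library was above every mtDNA B6 library, as in 1.53% of tested genes. The log2 difference was 1.53 (SE 0.39), a 2.88-fold higher level in mtDNA NZB, with an adjusted p of 0.0385 by edgeR's quasi-likelihood test (Benjamini-Hochberg). At rest, 1.01% of tested genes were called between haplotypes and 0.672% were called higher in mtDNA NZB. Single libraries decided this background: 107 genes were called (71 higher, 36 lower), and the count was 0 without resting mtDNA B6 replicate 4 or mtDNA NZB replicate 5, 2, 6 and 18 without resting mtDNA B6 replicate 1, 3 or 5, 69 without its replicate 6, 187, 181 and 162 without mtDNA NZB replicate 1, 3 or 4, and 289 (47 higher, 242 lower) without mtDNA NZB replicate 6. The fit of 21 libraries called 323 genes (51 higher, 272 lower), and that with the set as a term called 1.

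The direction of the Il2 difference held in all fits, and the call did not. Without any 1 of the 6 resting mtDNA B6 libraries, or without resting mtDNA NZB replicate 5 or 6, the adjusted p lay between 0.0518 and 0.192, with log2 differences from 1.23 to 1.58. With the set of like reads per transcript count as a term it was 1.52 with an adjusted p of 0.106, and over the 21 libraries 1.25 with an adjusted p of 0.0573, all by edgeR's quasi-likelihood test (Benjamini-Hochberg). The pair with the most Il2, mtDNA NZB replicates 5 and 6, also had the most Tgfb1 of all resting libraries (181 and 156 CPM) and the most Tnf of resting mtDNA NZB (53.2 and 44.6 CPM), and with replicate 2 the least Ifng (30.7 and 61.8 CPM). They also held more activated T cell markers (229 and 291 CPM) and more Foxp3 plus Ikzf4 (36.2 and 36.1 CPM) than any other resting library. Replicate 6 stood apart in makeup, with granulocyte markers at 12048 CPM (at most 4224 CPM in the other resting libraries), the most myeloid markers (2806 CPM) and the fewest T cell markers (5346 CPM). The part of cell makeup in the Il2 difference was not tested.

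On activation Il2 did not pass the test in either haplotype in the main fit. It lay between 2.54 and 8.59 CPM (median 3.18) in activated mtDNA B6 cells and between 2.49 and 6.85 CPM (median 4.12) in activated mtDNA NZB cells. The log2 changes were 0.90 (SE 0.38, adjusted p = 0.0542) and -0.62 (SE 0.37, adjusted p = 0.165) by edgeR's quasi-likelihood test (Benjamini-Hochberg). With the set of like reads per transcript count as a term, the change in mtDNA B6 cells was 1.44 (adjusted p = 0.0217). Single libraries moved it too, by the same test. Without activated mtDNA B6 replicate 3, the highest, it was 0.56 (adjusted p = 0.217). Without activated replicate 1 or 4 it was 1.01 (adjusted p = 0.0394) or 1.02 (adjusted p = 0.0391), both called. The signs were opposite, and the test of the difference between the responses gave -1.52 (SE 0.53, unadjusted p = 0.00843, adjusted p = 0.232). Between haplotypes after activation the log2 difference of Il2 was 0.0090 (SE 0.37).

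**Figure D4:**
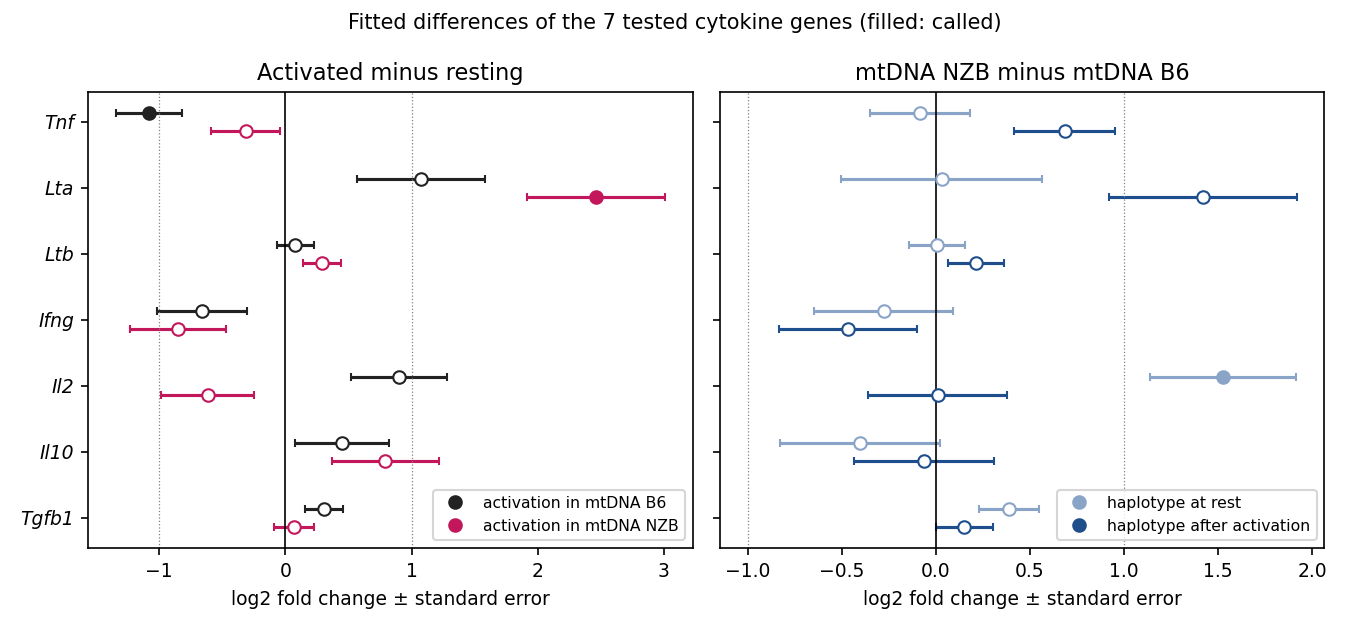
Log2 fold change with its standard error for the 7 tested genes, for activated minus resting cells in each haplotype (left) and for mtDNA NZB minus mtDNA B6 in each state (right). Filled points were called, and dotted lines mark the fold limit of 1. The calls are Tnf in mtDNA B6 (-1.08), Lta in mtDNA NZB (2.46) and Il2 at rest (1.53).

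Il21, which encodes a cytokine that helps B cells, lies next to Il2 and had few counts. Its libraries summed to 22 counts in resting and 24 in activated mtDNA B6 cells, and to 10 and 12 counts in mtDNA NZB cells. The 16.9 CPM of resting mtDNA NZB replicate 2 is 1 count. No difference in Il21 could be read at this depth.

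Csf2 encodes the growth factor GM-CSF, and its 3′ UTR holds the longest run of pentamers printed above. It had 8 counts over the 6 resting and 33 over the 6 activated mtDNA B6 libraries, and 6 counts at rest and 46 after activation in mtDNA NZB cells. At rest 2 mtDNA B6 and 3 mtDNA NZB libraries had no count, while every activated library had at least 2, with 0.792 to 2.56 CPM in mtDNA B6 and 0.654 to 4.25 CPM in mtDNA NZB. Activated replicate 6 of mtDNA NZB, the deepest library, gave 29 of the 46 counts. Csf2 was filtered out as too low; with no filter the log2 changes were 1.87 (adjusted p = 0.0273) in mtDNA B6 and 2.26 (adjusted p = 0.0101) in mtDNA NZB by edgeR's quasi-likelihood test (Benjamini-Hochberg), while DESeq2 gave adjusted p values of 0.0777 and 0.0542. In its window 149 bases are also exon of the noncoding Gm57329 on the other strand.

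Il3, the neighbour of Csf2 and a growth factor of mast cells and basophils, had 0 counts in all 24 libraries. Over all libraries together, 3 counts would be 0.0396 CPM, and in single libraries the limit ran from 0.440 to 50.8 CPM, for counting error only. Il3 was thus not detectable at this depth.

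Il10, an inhibitor of macrophages and dendritic cells, was low and varied widely. It ran from 1.57 to 10.2 CPM at rest and from 3.96 to 14.0 CPM after activation in mtDNA B6 cells, and from 0 to 5.22 CPM and from 2.88 to 9.59 CPM in mtDNA NZB cells. The 0 is resting mtDNA NZB replicate 2, the smallest library, and without it that group ran from 2.34 to 5.22 CPM. All groups overlapped. The log2 changes on activation were 0.45 (SE 0.37, adjusted p = 0.339) and 0.79 (SE 0.42, adjusted p = 0.118) by edgeR's quasi-likelihood test (Benjamini-Hochberg).

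Tgfb1, whose product is secreted in a latent form and restrains T cells, varied little. The group means were 93.6 ± 12.5 CPM in resting and 116 ± 12.2 CPM in activated mtDNA B6 cells (SD, n = 6), and 118 ± 40.4 and 129 ± 19.5 CPM in mtDNA NZB cells. The spread in resting mtDNA NZB cells came from replicates 5 and 6, while the other 4 lay between 84.7 and 103 CPM. At rest the log2 difference between haplotypes was 0.39 (SE 0.16, adjusted p = 0.153), and activation changed Tgfb1 by 0.31 (SE 0.15, adjusted p = 0.102) in mtDNA B6 and 0.07 (SE 0.16, adjusted p = 0.743) in mtDNA NZB, all by edgeR's quasi-likelihood test (Benjamini-Hochberg).

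Between haplotypes after activation none of the 7 genes was called (0% of 10566 tested genes were called by edgeR's quasi-likelihood test, 327 had an unadjusted p under 0.05, and DESeq2 called 0 genes). For the difference between the responses, again none of the 7 was called, with 0% of all genes called by edgeR, 1512 genes at an unadjusted p under 0.05 and 1 gene called by DESeq2. Over the 21 libraries edgeR called 113 genes for the difference between the responses (95 higher, 18 lower; 1.04% of those tested), none of them among the 7, and after activation 0 genes, with 1068 at an unadjusted p under 0.05. Without activated mtDNA NZB replicate 6 alone, 866 genes had an unadjusted p under 0.05 after activation. The comparisons share libraries, since each group enters more than 1 of them. The median log2 change of the 7 genes was 0.31 in mtDNA B6 cells, where that of all tested genes was -0.03, and 0.07 in mtDNA NZB cells, where that of all tested genes was -0.06. Between haplotypes the medians were 0.01 at rest and 0.15 after activation, against -0.01 and 0.01 for all tested genes.

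Several other cytokine genes of helper cells were called. Of 18 further cytokine genes, 10 were tested, and in each haplotype 3 rose and 1 fell on activation, where 7.06% of all tested genes rose and 10.6% fell in mtDNA B6, and 9.46% rose and 14% fell in mtDNA NZB. Il13, a product of type 2 helper cells, rose by 3.85 in mtDNA B6 and 3.81 in mtDNA NZB on the log2 scale. Il17a, the signature of type 17 helper cells, rose by 3.13 and 3.11 (in mtDNA NZB it was not called over the 21 libraries), and Lif, a cytokine of the interleukin-6 family, rose by 2.76 and 3.47. The gene that fell was Tgfb3 in mtDNA B6 cells and Il12a in mtDNA NZB cells. All of these passed edgeR's quasi-likelihood test (Benjamini-Hochberg), with adjusted p values of at most 0.031.

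Of 17 receptor genes for the 10 cytokines, 16 were tested. In mtDNA B6 cells 2 rose and 2 fell, and in mtDNA NZB cells 2 rose and 4 fell, where 17.7% and 23.4% of all tested genes were called in either direction. Il2ra, the alpha chain (CD25) that gives the interleukin-2 receptor its high affinity, rose by 4.68 in mtDNA B6 and by 5.00 in mtDNA NZB on the log2 scale. Il2rb, the signalling chain that receptor shares with that of interleukin 15, rose by 2.37 and 2.51. Ltbr, the lymphotoxin receptor, changed by -3.01 and -3.31, and Csf2ra, a chain of the GM-CSF receptor, by -2.70 and -2.49, all called lower. Both receptors are known from myeloid cells, whose markers fell too and whose part was not tested. In mtDNA NZB cells Tnfrsf1a and Tgfbr2 were also called lower; over the 21 libraries Tnfrsf1a was not called there and Csf2rb2 was.

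Among 25 transcription factors known to act on cytokine genes, 24 were tested. In mtDNA B6 cells 4 rose (Tbx21, Eomes, Stat4 and Ikzf3) and Runx1 fell, and in mtDNA NZB cells Tbx21 rose and 4 fell (Rel, Bcl6, Stat5a and Runx1), beside the same 17.7% and 23.4% of all tested genes. None of the 24 was called for the difference between the responses. Tbx21, the T-bet factor of type 1 helper cells, rose by 1.68 and 1.59 on the log2 scale. Rel, an NF-κB subunit needed for Il2, changed by -1.97 in mtDNA NZB and by -0.90 in mtDNA B6, and the test of the difference gave -1.07 (adjusted p = 0.311 by edgeR's quasi-likelihood test (Benjamini-Hochberg)). At rest Stat5a, a mediator of interleukin-2 signals, was the 1 factor called between haplotypes, higher in mtDNA NZB by 1.14 (SE 0.29, adjusted p = 0.0378); Rel was higher by 1.08 with an adjusted p of 0.0507. Over the 21 libraries the 1 factor called at rest was Rel and not Stat5a.

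The RNA-binding proteins that act on AU-rich and stem-loop elements of cytokine messages were tested as a list of 11 genes, of which 10 had enough counts. The same 4 fell in both haplotypes, where 10.6% of all tested genes fell in mtDNA B6 and 14% in mtDNA NZB. Zfp36, which encodes tristetraprolin, a protein that binds AU-rich elements and speeds decay of Tnf messages, fell, with log2 changes of -4.0 in mtDNA B6 and -3.68 in mtDNA NZB. Its relative Zfp36l2 changed by -2.94 and -3.45, and Zc3h12a, the endonuclease regnase-1, by -2.18 and -2.69. The fourth was Zfp36l1. All 4 passed edgeR's quasi-likelihood test (Benjamini-Hochberg) in both haplotypes, none was called between haplotypes, and Zc3h12d was called higher in mtDNA B6 cells. Myeloid and granulocyte markers fell alongside, and their part in these levels was not tested.

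Of 10 genes for shedding of membrane-bound TNF and for latency and release of TGF-β, 7 were tested. Lrrc32, which encodes the GARP protein that holds latent TGF-β on the cell surface, rose by 1.40 on the log2 scale in mtDNA B6 cells and was 0.75 higher in mtDNA NZB cells without a call. Itgav, an integrin chain that frees TGF-β, was called lower in mtDNA B6 (-1.07) and passed the test but not the fold limit in mtDNA NZB (-0.92). Rhbdf2, a partner of the TNF-shedding enzyme ADAM17, was called lower in mtDNA NZB (-1.16) and passed the test but not the fold limit in mtDNA B6 (-0.58). None of the 7 was called between haplotypes or for the difference between the responses, and over the 21 libraries Lrrc32 was called higher and Itgav lower in mtDNA NZB as well.

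The genes whose levels were most like those of the members were found by Pearson's r of log2 CPM over the 24 libraries. These share groups and differ in depth and makeup, and the separate Lta ranges of activated mtDNA NZB cells are among them. Lta was most like Gpr83 (r = 0.96) and Agpat3 (0.95), Tnf most like Irf2bp1 (0.87) and Upf1 (0.84), and Ifng most like Tln1 (0.85) and Spns2 (0.83). Resting mtDNA NZB replicate 2, the smallest library, entered with 0 counts of Lta, and r without that library was not computed. Ltb was most like Trbc1 (0.89) and Cd247 (0.86), which encode parts of the T cell receptor complex, and Tgfb1 most like Rab35 and Arf1 (both 0.86).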

How the data were processed

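Bulk MARS-seq, a 3′ method with unique molecular identifiers (UMIs), was used on 24 libraries. Per the study's methods and the submitters' processing notes, reads were trimmed with cutadapt (minimum 30 bases), mapped with STAR to 3′ UTR regions of GRCm39 (Ensembl 106) and counted with HTSeq; the authors deposited UMI-corrected counts, used here, and a second table of larger counts, used as an alternative. How strand was treated is not given in the sources used here. 1 column matched no sample and was not used.

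Counts were tested with edgeR 4.0.16 (R 4.3.3; TMM, filterByExpr, quasi-likelihood test, 4 groups in 1 fit), and calls needed both a Benjamini-Hochberg adjusted p no higher than 0.05 and a log2 change of 1 or more in size (no fold limit for the difference of the responses). The fit was also run on simulated counts, for activation in mtDNA B6 only. Those had the same spread for all genes and no differences in cell makeup, so the run does not cover the uneven libraries seen here. Alternatives were DESeq2 1.42.0, other size factors, no filter, the second table, fits of 12 or 21 libraries, a set term, replicate blocks, and each library left out. The 21 libraries (of mtDNA NZB, resting replicates 2 and 6 and activated replicate 6 left out) match the published group means within 0.475% for means of at least 100. Sets of like reads per UMI (3 sets of 8) were made from the data.

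The cytokine genes and the lists of pathway and marker genes were chosen with earlier results of these data known. All 10 cytokine genes are named; from each list, the up to 3 called genes with the largest change on activation are given with values, and any gene called between haplotypes. Gene models and sequences come from GENCODE (GRCm39) rather than from the Ensembl 106 models used for counting. Whether the overlapping genes named in the read windows were among those models was not checked. Other genes were named after their values were seen only as members of a count of 5 or fewer, or as the 2 genes most like a member by Pearson's r.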

Additional observations from a re-analysis of the deposited data

Results flagged for a closer look

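In 36 sets of 6 values (9 genes in 4 groups), 3 held a library far from the rest by Dixon's ratio with a critical value of 0.625; chance flags about 1 in 20. Il2 in activated mtDNA B6 replicate 3 was 8.59 CPM (26 counts), with the next at 4.59 CPM. Il10 in activated mtDNA B6 replicate 1 was 14.0 CPM (55 counts), with the next at 5.93 CPM; the same library had the most Ifng of that group. Il21 in resting mtDNA NZB replicate 2 was 16.9 CPM, which is 1 count in the smallest library.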

How the results depend on the processing

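Called among the 10 genes in mtDNA B6 activation were 1 gene in the main analysis, 3 with no filter (Tnf, Lta and Csf2), 2 over 12 libraries, 2 over 21 libraries (both times Tnf and Lta) and 0 to 3 with single libraries left out. In mtDNA NZB activation, 1 gene was called in the main analysis, 2 with no filter, 2 with the second table (both times Lta and Csf2), 2 over 21 libraries (Lta and Ifng) and 1 to 2 with single libraries left out. At rest, Il2 was called in the main analysis. None of the 10 genes was called there with DESeq2, the second table, 12 libraries (where Il2 was not tested), the set term or 21 libraries. With single libraries left out, 0 to 1 of them were called at rest. None of the 10 genes was called after activation or for the difference of the responses under any alternative run.

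Some label numbers recur at rest and after activation within a haplotype, in 5 mtDNA B6 and 4 mtDNA NZB pairs, and the sources do not say whether a number marks a mouse. Deviations from the group means correlated at -0.16 to 0.25 in these 9 pairs (3 over 0.1). The range was -0.19 to 0.25 in 36 pairs that share a title number (7 over 0.1). The 3 were mtDNA B6 replicates 1, 2 and 5 (0.14, 0.25 and 0.16), and the 4 mtDNA NZB pairs ran from -0.16 to 0.0028. Most of the 9 pairs, among them these 3, also share a title number, so the 2 ranges are not independent. This check cannot decide whether the libraries are paired, and the main fit treated them as unpaired. With the replicate block by label number, none of the 10 cytokine genes was called in mtDNA NZB activation (Lta 1.11, adjusted p = 0.118 by edgeR's quasi-likelihood test). That fit held all libraries, but only those that share a number bear on the change. With the replicate block by title number, none of them was called at rest (Il2 1.55, adjusted p = 0.0691 by the same test). Neither block changed any other count of calls among these genes. With the set term, Tnf in mtDNA B6 was -0.85 (adjusted p = 0.0455, under the fold limit) and Il2 was called in its place.

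No called value changed sign. Uncalled values near 0 did: at rest, Lta to -0.11 and Ltb to -0.0098 with DESeq2, -0.0059 with other size factors and -0.025 with no filter; after activation, Il2 to -0.0053 with other size factors, -0.019 with no filter, -0.16 with the second table, -0.026 over 12 libraries, -0.024 with the title-number replicate block and -0.33 with the set term, and Il10 to 0.0067 without the 2 smallest libraries, an alternative chosen after seeing the data. With single libraries left out, values ran from -0.39 to 0.29 for Ifng in the difference of the responses, and after activation from -0.64 to 0.015 for Ifng, -0.22 to 0.35 for Il10 and -0.23 to 0.35 for Il2. At rest they ran from -0.10 to 0.20 for Lta, -0.094 to 0.12 for Ltb and -0.24 to 0.044 for Tnf, and in mtDNA NZB activation from -0.016 to 0.23 for Tgfb1. The causes were not tested. Depth limits Il2, Il10, Il21, Csf2 and Il3, which had at most 55 counts in any library.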
